A study of Mus musculus with 8 samples.

Results

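Immediate-early genes are transcribed within minutes of a stimulus, without new protein synthesis, and heat shock genes are induced when proteins unfold. The 10 such genes studied here, *Fos*, *Fosb*, *Jun*, *Junb*, *Egr1*, *Ier2*, *Atf3*, *Dusp1*, *Hspa1a* and *Hspa1b*, were chosen by symbol and followed through 4 populations of neonatal bone marrow stromal cells. All 10 were among the 15880 genes measured, and each symbol was read from 1 Ensembl identifier.

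The populations were sorted at P1 from *Nes-Gfp* heterozygous pups on a C57BL/6 background, in which GFP is driven by nestin regulatory elements. Bones pooled from 3 pups were crushed and digested with collagenase, and cells negative for CD45, CD31 and Ter119 were divided by GFP and surface Pdgfrα. The groups were GFP- Pdgfrα-, GFP- Pdgfrα+, GFP+ Pdgfrα- and GFP+ Pdgfrα+ cells, with 2 libraries each, made from 15000 to 80000 sorted cells by amplification of cDNA. Every population thus passed through the same digestion and sort, and no library from undigested tissue was analysed here, so that the level before digestion was not measured.

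AP-1 is a dimer of a Jun protein with a Fos, Jun or ATF family protein, and it binds DNA near genes of proliferation, matrix turnover and stress. *Fos* and *Egr1* are switched on through serum response factor and its ternary complex partners, which are phosphorylated by MAP kinases, while *Hspa1a* and *Hspa1b* are switched on by heat shock factor. In bone, AP-1 proteins are known for their part in osteoblast and osteoclast differentiation. Enzymatic digestion of tissue is itself known to induce both kinds of gene in many cell types.

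Values are the normalized signal of the authors' table, which is reads scaled to 1e6 of the effective library size, from 0.800 times the reads on genes in GFP- Pdgfrα- replicate 2 to 1.13 times in GFP+ Pdgfrα- cells. Libraries held between 3221217 and 5302762 reads on genes, and the signal at 3 reads lay between 0.825 and 1.04. Differences were tested with limma on log2(signal + 1), a scale that understates the change of low genes, with p-values adjusted over 15880 genes. Calls required an adjusted p of 0.05 or less. Below, a log2 difference is given with its SE, and a mean with its SD (n = 2). An exact permutation test of 2 libraries against 2 cannot go below a p of 0.333, so the calls rest on the spread that limma pools over the 8 libraries and all genes. The 2 sets of libraries came from independent pools of littermates.

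The genes lie on 7 chromosomes of NCBIM37. *Fos* is at chr12:86814840-86818223 on the plus strand and *Fosb* at chr7:19888070-19895394 on the minus strand. *Junb* (chr8:87500811-87502617) and *Ier2* (chr8:87185230-87186751) share a chromosome and the minus strand, as do *Dusp1* (chr17:26642535-26645464), *Hspa1b* (chr17:35093381-35096183) and *Hspa1a* (chr17:35106144-35109069). *Jun* is at chr4:94715725-94718913 and *Atf3* at chr1:192994175-193007219, both on the minus strand, and *Egr1* is on the plus strand at chr18:35020861-35024638. The signal counts all exons of a gene, of 1522 bp for *Ier2* to 3751 bp for *Fosb*.

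The sort was checked on transcripts of its markers. *Pdgfra* was at 839 and 794 in the libraries of GFP- Pdgfrα+ cells and at 733 and 754.5 in those of GFP+ Pdgfrα+ cells, against 18.1 or less in each of the other 4 libraries. *Nes* was at 149 and 176 in GFP+ Pdgfrα- cells and at 57.6 and 72.0 in GFP+ Pdgfrα+ cells. It stood at 27.4 and 47.1 in GFP- Pdgfrα+ cells and at 3.59 and 9.08 in the GFP- Pdgfrα- gate. *Ptprc*, which encodes CD45, reached 11.35 in a library of GFP- Pdgfrα- cells and at most 1.58 in the other populations.

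Among Pdgfrα- cells, all 10 genes were higher in GFP+ than in GFP- cells and none was lower, where 30.1% of all genes were called higher and 23.6% lower. Their median log2 difference was 2.84, against 0.15 over all genes. In bulk RNA, fewer cells that express a gene and less RNA per cell cannot be told apart. The comparison of the single positive populations, GFP- Pdgfrα+ minus GFP+ Pdgfrα-, likewise called 10 genes lower and none higher, where 13.5% of all genes were called lower and 14.3% higher, with a median of −2.32 against −0.03 over all genes. Both comparisons share the libraries of GFP+ Pdgfrα- cells. Each of these 20 calls held under every alternative scaling and test and without any 1 of the libraries.

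Among Pdgfrα+ cells, 4 of the 10 genes were higher in GFP+ than in GFP- cells and none was lower, where 3.22% of all genes were called higher and 2.13% lower. The number called of the 10 was 1 without GFP- Pdgfrα+ replicate 2, 2 without GFP+ Pdgfrα+ replicate 1 and 6 with the replicate number as a block, and that of all genes went from 849 to 246 in the first case. With the block 924 of all genes were called, against 849 without it. The genes called with all libraries and no block were *Fosb*, *Atf3*, *Junb* and *Fos*, and the median over the 10 was 1.05, against 0.0047 over all genes. In 8 of the 10, both GFP+ libraries lay above both GFP- libraries, which was so for 23.4% of all genes. Of the GFP+ cells, those with Pdgfrα were lower for 7 genes and higher for none, where 11.1% of all genes were called lower and 13.1% higher, with a median of −1.71 against −0.02 over all genes. Of the GFP- cells, those with Pdgfrα were higher for 5 genes and lower for 3, where 32.9% of all genes were called higher and 26.8% lower. The GFP+ Pdgfrα+ cells were above the GFP- Pdgfrα- cells for 5 genes and below them for none, where 32.9% of all genes were called higher and 26.4% lower.

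**Figure D1:**
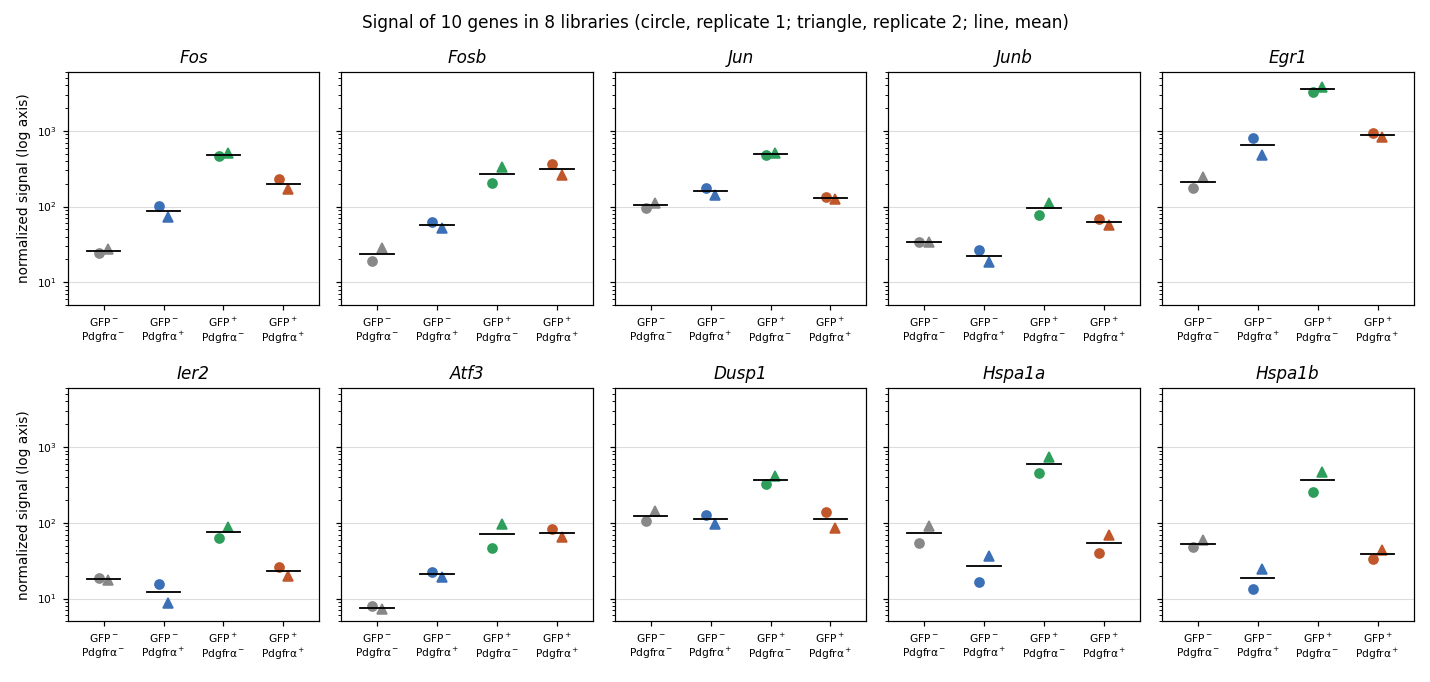
Normalized signal (log axis, shared by all panels) of the 10 genes in each sorted population on the horizontal axis. Circles are replicate 1, triangles replicate 2 and lines the mean of the 2 libraries; 8 of the 10 genes are highest in GFP+ Pdgfrα- cells, while *Fosb* and *Atf3* are about level in both GFP+ populations.

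*Fos* encodes the founding member of the Fos family of AP-1 subunits. Its signal was 24.3 and 27.7 in GFP- Pdgfrα-, 103 and 73.8 in GFP- Pdgfrα+, 465 and 505 in GFP+ Pdgfrα-, and 228 and 172 in GFP+ Pdgfrα+ cells. No 2 populations overlapped, and all 3 neighbours in this order differed by the test. The mean of GFP+ Pdgfrα- cells, 485, was 18.7-fold that of GFP- Pdgfrα- cells, a log2 difference of 4.17 ± 0.19 (adjusted p = 4.68e-09), and it was 2.425-fold that of GFP+ Pdgfrα+ cells (adjusted p = 0.000368). The step from GFP- Pdgfrα+ to GFP+ Pdgfrα+ cells was 2.26-fold, or 1.173 ± 0.19 (adjusted p = 0.00335). That call was lost without the mean-variance trend (0.0574), without GFP- Pdgfrα+ replicate 2 (0.061) and without GFP+ Pdgfrα+ replicate 1 (0.0509), with adjusted p between 0.000928 and 0.061 over all alternatives.

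*Fosb*, a relative of *Fos* with a similar leucine zipper, followed another order. It was at 19.1 and 28.65 in GFP- Pdgfrα-, 62.15 and 52.7 in GFP- Pdgfrα+, 207 and 330 in GFP+ Pdgfrα-, and 361 and 257 in GFP+ Pdgfrα+ cells. The libraries of both GFP+ populations overlapped and lay above all GFP- libraries. The log2 difference between the GFP+ populations was 0.22, with an interval from −0.32 to 0.76 (adjusted p = 0.5775). *Fosb* had the largest difference of the 10 between GFP+ and GFP- cells with Pdgfrα, 5.38-fold, or 2.39 ± 0.25 (adjusted p = 0.0002125), and this call held in every alternative. Among cells without Pdgfrα the difference was 11.25-fold, or 3.43 ± 0.25 (adjusted p = 2.63e-07).

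*Jun*, the partner with which Fos proteins dimerize, was high in 1 population. The signal in GFP+ Pdgfrα- cells was 481 and 504, and the other 6 libraries lay between 96.1 and 176. It was 4.74-fold higher in GFP+ Pdgfrα- than GFP- Pdgfrα- cells (2.24 ± 0.14, adjusted p = 8.38e-08) and 3.81-fold higher than in GFP+ Pdgfrα+ cells (adjusted p = 2.315e-06). Among Pdgfrα+ cells the difference was −0.29, with an interval from −0.60 to 0.02 (adjusted p = 0.3), and GFP+ Pdgfrα+ cells, at 132 and 127, were not called different from either GFP- population. Their difference from GFP- Pdgfrα- cells was called after quantile normalization (0.40, 0.0262) and without GFP- Pdgfrα- replicate 2 (0.42, 0.0391), and was negative after median centring (−0.17). The difference between the GFP- populations, 0.61 (adjusted p = 0.00265), was lost with median centring, at 0.16 (0.341). *Jun* and an annotated gene on the opposite strand share exonic sequence, and the library kit does not mark strand, so reads of the 2 genes cannot be told apart.

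*Junb*, a Jun family subunit that often opposes *Jun* at shared target genes, was at 34.0 and 34.3 in GFP- Pdgfrα-, 26.35 and 18.6 in GFP- Pdgfrα+, 78.1 and 113 in GFP+ Pdgfrα-, and 68.1 and 57.9 in GFP+ Pdgfrα+ cells. Here both GFP+ populations were above both GFP- populations with no overlap. The GFP difference was nearly the same with and without Pdgfrα, 1.46 ± 0.22 and 1.43 ± 0.22 (adjusted p = 0.002735 and 0.000171), with a difference of 0.03 between the 2 effects (interval −0.66 to 0.72, adjusted p = 0.944). Over all alternatives the GFP difference without Pdgfrα lay between 0.98 and 1.69, and that between the 2 effects between −0.23 and 0.46. Among Pdgfrα+ cells the call was lost without GFP- Pdgfrα+ replicate 2 (0.0521), with adjusted p between 0.00114 and 0.0521 over all alternatives. The lower *Junb* of GFP- Pdgfrα+ against GFP- Pdgfrα- cells, −0.60 (adjusted p = 0.0341), was lost without the trend (0.0893), with the compared populations alone (0.0585) and with voom (0.05775). It was also lost without GFP- Pdgfrα- replicate 1 (0.0787) or 2 (0.0839) and without GFP- Pdgfrα+ replicate 2, at −0.36 (0.265), with adjusted p from 0.000874 over all alternatives. Its higher signal in GFP+ Pdgfrα+ than GFP- Pdgfrα- cells, 0.86 (adjusted p = 0.00555), was lost with median centring, at 0.38 (0.152). The uncalled difference between the GFP+ populations, −0.57 (adjusted p = 0.0874), was called after quantile normalization (−0.68, 0.0425) and scaling to reads outside mitochondrial genes (−0.88, 0.00939).

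Of 6 other AP-1 subunits 5 were analysed here, without *Batf3*. Among Pdgfrα- cells GFP+ cells were higher for 2 of them and lower for none, and among Pdgfrα+ cells for 1 and none, with 0 of the 5 called by edgeR. Of all genes 30.1% were called higher and 23.6% lower in the first of these comparisons, and 3.22% and 2.13% in the second. In the second edgeR called 526 of 15880 genes higher and 367 lower. *Fosl2*, a Fos family subunit of bone-forming cells, differed most, at 16.5 and 17.8 in GFP- Pdgfrα- cells against 147 and 155 in GFP- Pdgfrα+, 105 and 111 in GFP+ Pdgfrα-, and 187 and 153 in GFP+ Pdgfrα+ cells. Opposite to *Fos*, it was higher in GFP+ Pdgfrα+ and GFP- Pdgfrα+ cells than in GFP+ Pdgfrα- cells, by 0.64 and 0.47 (adjusted p = 0.009 and 0.0359), and the second of these calls was lost after quantile normalization and after scaling to reads outside mitochondrial genes. *Jdp2*, a repressor that dimerizes with Jun proteins, was at or below 1.005 in GFP- Pdgfrα- cells and between 7.075 and 13.8 elsewhere. *Batf* was the subunit called higher in GFP+ Pdgfrα+ cells, at 4.56 and 4.46 against 0.718 or less in the other 6 libraries (2.01 against GFP- Pdgfrα+ cells, adjusted p = 0.00808). *Jund*, between 25.1 and 45.8, was called in 1 pairwise comparison, higher in GFP- Pdgfrα+ than GFP- Pdgfrα- cells by 0.58 (adjusted p = 0.0388). *Fosl1* stayed at 3.15 or less and was called in none.

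*Egr1*, a zinc finger transcription factor, had the highest level per kilobase of exon among the 10 genes in each population. Its signal was 177 and 249 in GFP- Pdgfrα-, 809 and 478 in GFP- Pdgfrα+, 3295 and 3811 in GFP+ Pdgfrα-, and 930 and 831 in GFP+ Pdgfrα+ cells. The libraries of GFP+ Pdgfrα- cells stood 4.035-fold above those of GFP+ Pdgfrα+ cells in the mean (adjusted p = 4.51e-05) and 16.7-fold above those of GFP- Pdgfrα- cells (4.07 ± 0.22, adjusted p = 2.38e-08). The Pdgfrα+ populations did not overlap, but their difference of 0.50 was not called (interval 0.02 to 0.98, adjusted p = 0.25). It was 0.88 without GFP- Pdgfrα+ replicate 1 and 0.12 without replicate 2. Per kilobase, GFP+ Pdgfrα- cells held 1146 ± 118 of *Egr1* and 206 ± 12.3 of *Fos*, and levels were 284 ± 22.7 and 85.05 ± 16.65 in GFP+ Pdgfrα+ cells. In GFP- Pdgfrα- cells *Egr1* was at 68.7 ± 16.45 per kilobase, next to 46.0 ± 9.97 for *Dusp1*. An annotated gene on the opposite strand overlaps exons of *Egr1*, and its reads cannot be told apart without strand.

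*Ier2*, a nuclear immediate-early protein, was at 62.8 and 88.6 in GFP+ Pdgfrα- cells and between 8.76 and 25.8 in the other 6 libraries. The GFP+ Pdgfrα- cells were above each other population, by 3.305-fold over GFP+ Pdgfrα+ cells (log2 difference of the latter −1.67 ± 0.29, adjusted p = 0.001165). No difference among the remaining 3 populations was called. That of GFP- Pdgfrα+ from GFP- Pdgfrα- cells, −0.59 (adjusted p = 0.0956), was called after quantile normalization (−0.87, 0.0223), median centring (−1.04, 0.00561) and scaling to reads outside mitochondrial genes (−0.73, 0.0404), and without GFP- Pdgfrα+ replicate 1 (−0.97, 0.023). Among Pdgfrα+ cells the GFP difference was 0.90 (interval 0.28 to 1.52, adjusted p = 0.0982).

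*Atf3*, an ATF/CREB family factor of stress responses that can pair with Jun proteins, took the order of *Fosb*. It was at 7.90 and 7.19 in GFP- Pdgfrα-, 22.6 and 19.45 in GFP- Pdgfrα+, 46.0 and 96.9 in GFP+ Pdgfrα-, and 83.0 and 65.1 in GFP+ Pdgfrα+ cells. The GFP+ populations overlapped and their means differed by 0.14, within an interval from −0.52 to 0.79 (adjusted p = 0.79). GFP+ cells were higher by 1.76 ± 0.30 with Pdgfrα (3.525-fold, adjusted p = 0.00519) and by 2.99 ± 0.30 without it (9.47-fold, adjusted p = 4.34e-06). The call among Pdgfrα+ cells was lost without GFP- Pdgfrα+ replicate 2 (0.0776) and without GFP+ Pdgfrα+ replicate 1 (0.068), with adjusted p between 0.00173 and 0.0776 over all alternatives.

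*Dusp1* encodes a phosphatase that switches MAP kinases off and is itself induced by them. It was at 327 and 417 in GFP+ Pdgfrα- cells. The other 6 libraries lay between 85.8 and 143, and their 3 populations overlapped one another. GFP+ Pdgfrα- cells were 3.00-fold above GFP- Pdgfrα- cells (1.58 ± 0.24, adjusted p = 0.000118), whereas among Pdgfrα+ cells the GFP difference was −0.01, with an interval from −0.53 to 0.50 (adjusted p = 0.99). The sign of that small difference, and of the other uncalled differences of *Dusp1*, turned in some alternatives. Median centring called *Dusp1* lower than in GFP- Pdgfrα- cells in GFP- Pdgfrα+ (−0.60, adjusted p = 0.0314) and GFP+ Pdgfrα+ cells (−0.64, adjusted p = 0.0227), against −0.14 and −0.16 without it.

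*Hspa1a* and *Hspa1b* encode the inducible cytosolic Hsp70, which refolds damaged proteins. *Hspa1a* was at 53.6 and 91.85 in GFP- Pdgfrα-, 16.8 and 36.7 in GFP- Pdgfrα+, 453 and 729 in GFP+ Pdgfrα-, and 40.2 and 69.4 in GFP+ Pdgfrα+ cells. *Hspa1b* was at 47.5 and 58.8, 13.2 and 24.2, 258 and 466, and 33.3 and 43.8 in the same order. For both genes the GFP+ Pdgfrα- libraries lay above all others, and the difference between the single positive populations was the largest of the 10 genes. GFP+ Pdgfrα- cells were 22.1-fold above GFP- Pdgfrα+ cells in *Hspa1a* (log2 difference of the latter −4.48 ± 0.37, adjusted p = 3.81e-06) and 19.3-fold in *Hspa1b* (−4.20 ± 0.30, adjusted p = 1.11e-06).

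Unlike *Fos*, *Fosb*, *Jun*, *Egr1* and *Atf3*, which were lowest in GFP- Pdgfrα- cells, both Hsp70 genes were lowest in GFP- Pdgfrα+ cells. The means of *Junb*, *Ier2* and *Dusp1* were also lowest in GFP- Pdgfrα+ cells, at 22.45, 12.13 and 111.9. For *Hspa1a* and *Hspa1b* the differences from GFP- Pdgfrα- cells were −1.46 ± 0.37 and −1.51 ± 0.30 (adjusted p = 0.00482 and 0.000968). The *Hspa1a* call was lost without GFP- Pdgfrα+ replicate 1, at −0.92 (adjusted p = 0.0797), the highest over all alternatives, with 4.8e-06 the lowest. In each of the 4 populations both genes were higher in replicate 2, by 1.61- to 2.19-fold for *Hspa1a* and 1.24- to 1.83-fold for *Hspa1b*. The 8 other genes shared no such direction, and over all 10 genes replicate 2 was higher for 8 in GFP- Pdgfrα-, 2 in GFP- Pdgfrα+, 10 in GFP+ Pdgfrα- and 2 in GFP+ Pdgfrα+ cells. The GFP differences among Pdgfrα+ cells, of 1.06 and 1.05, were not called (adjusted p = 0.14 and 0.0717), and with the replicate number as a block, which pairs the populations of a pool of littermates, they were (adjusted p = 0.00181 and 0.00593). They lay at 0.52 and 0.64 without GFP- Pdgfrα+ replicate 1 and at 1.60 and 1.46 without its replicate 2. The block also called *Hspa1a* lower in GFP+ Pdgfrα+ than GFP- Pdgfrα- cells, at −0.40 (adjusted p = 0.04, against 0.374 without the block). Without 1 library it lay between −0.79 and −0.02, the latter without GFP- Pdgfrα- replicate 2 or GFP+ Pdgfrα+ replicate 1. In that comparison median centring also called *Hspa1a* (−0.88, 0.0499) and *Hspa1b* (−0.94, 0.0148) lower.

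The coding sequences of *Hspa1a* and *Hspa1b*, of 1926 and 1929 bases, were 99.4% identical in the annotated transcripts, with 8 mismatched bases. Of all stretches of 50 bases, 59.4% of those in the *Hspa1a* transcript also stood in that of *Hspa1b*. How reads were divided between the 2 genes is therefore uncertain, so their reads were also summed. The sum lay between the separate estimates in the single positive comparison (−4.40, adjusted p = 1.64e-06) and gave 1.08 among Pdgfrα+ cells (adjusted p = 0.0916). A gene annotated on the opposite strand overlaps *Hspa1a*.

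Summed over the 8 immediate-early genes, the signal was 482 and 619 in GFP- Pdgfrα-, 1343 and 890 in GFP- Pdgfrα+, 4962 and 5866 in GFP+ Pdgfrα-, and 1968 and 1616 in GFP+ Pdgfrα+ cells. *Egr1* was the largest term of each of these sums. Summed over the Hsp70 genes, it was 101 and 151, 30.0 and 60.9, 711 and 1195, and 73.5 and 113. GFP+ Pdgfrα- cells were highest in both sums, while the order of the other 3 populations differed between them.

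**Figure D2:**
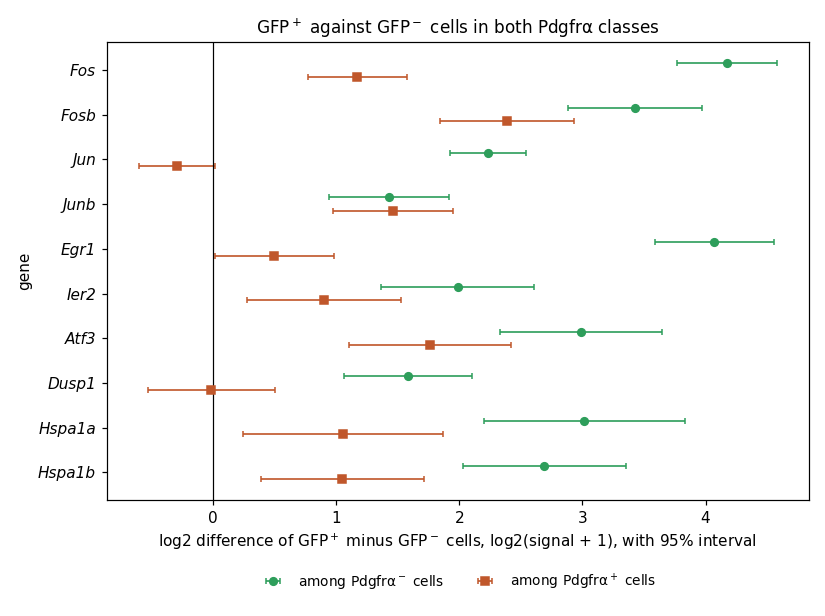
Log2 difference of GFP+ minus GFP- cells on the horizontal axis, on log2(signal + 1), for each gene on the vertical axis. Points are limma estimates from 2 libraries per population, bars their 95% intervals, circles the Pdgfrα- and squares the Pdgfrα+ cells; all 10 circles lie right of 0, and the circle and square of *Junb* are at 1.43 and 1.46.

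Whether GFP+ and GFP- cells differed to the same extent with and without Pdgfrα was tested by the interaction. It was called negative for 9 of the 10 genes and positive for none, where 25.2% of all genes were called negative and 19.1% positive, with a median of −1.62 against −0.16 over all genes. The difference among Pdgfrα+ cells minus that among Pdgfrα- cells was −3.57 for *Egr1*, −3.00 for *Fos*, −2.53 for *Jun* and −1.60 for *Dusp1*, and these 4 calls held in every alternative. For *Hspa1a* (−1.96, adjusted p = 0.00978) the call was lost without the trend (0.0541), without GFP- Pdgfrα+ replicate 2 (0.0564), without GFP+ Pdgfrα- replicate 2 (0.071) and without GFP+ Pdgfrα+ replicate 1 (0.054). For *Hspa1b* (−1.64, adjusted p = 0.008315) it was lost without GFP+ Pdgfrα- replicate 2 (0.0584). The calls of *Fosb*, *Ier2* and *Atf3*, at −1.04, −1.09 and −1.23, had adjusted p of 0.0313, 0.0456 and 0.0336 and were each lost without 1 of 5 libraries in turn, with adjusted p up to 0.165, 0.195 and 0.154. For *Fosb* these were GFP- Pdgfrα- replicate 1 (0.101), GFP- Pdgfrα+ replicates 1 (0.115) and 2 (0.0569), GFP+ Pdgfrα- replicate 2 (0.165) and GFP+ Pdgfrα+ replicate 2 (0.1305). For *Ier2* they were GFP- Pdgfrα- replicates 1 (0.06385) and 2 (0.09), GFP- Pdgfrα+ replicate 1 (−0.71, 0.185), GFP+ Pdgfrα- replicate 2 (0.195) and GFP+ Pdgfrα+ replicate 2 (0.135). For *Atf3* they were GFP- Pdgfrα- replicate 2 (0.065), GFP- Pdgfrα+ replicates 1 (0.109) and 2 (0.0649), GFP+ Pdgfrα- replicate 2 (−0.70, 0.154) and GFP+ Pdgfrα+ replicate 2 (0.115). These 3 calls were also lost without the trend, with voom and with median centring, those of *Ier2* (0.07985) and *Atf3* (−0.88, 0.128) with quantile normalization, and that of *Ier2* with a pseudocount of 0.1 (0.0658).

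Other immediate-early genes, most of them transcription factors, were compared as a list of 15. Among Pdgfrα- cells 11 were higher and 1 lower in GFP+ cells, with a median of 1.95, and among Pdgfrα+ cells 2 were higher and none lower, with a median of 0.15. Of all genes, 30.1% were called higher and 23.6% lower in the first of these comparisons, and 3.22% and 2.13% in the second. GFP+ Pdgfrα+ cells were higher than GFP+ Pdgfrα- cells for 2 of the 15, against 13.1% of all genes, with a median of −0.23. They were lower for 0 with limma, against 11.1% of all genes. In either direction 4 of the 15 had an unadjusted p under 0.05 with limma, which includes the 2 called higher. With edgeR these cells were lower for 2 of the 15, where 1516 of 15880 genes were called lower. After scaling to reads outside mitochondrial genes they were lower for 3, where 3473 of 15880 genes were called lower. The single positive populations differed in 3, with 1 higher and 2 lower in GFP- Pdgfrα+ cells, against 14.3% and 13.5% of all genes. *Egr2*, a relative of *Egr1*, had the order of *Fos* in its means, at 95.5 and 142 in GFP+ Pdgfrα-, 89.6 and 53.3 in GFP+ Pdgfrα+ cells, and 16.2 or less in the 4 GFP- libraries (2.05 among Pdgfrα+ and 3.77 among Pdgfrα- cells, adjusted p = 0.00114 and 2.55e-07).

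*Klf4* and *Klf6*, zinc finger factors of the Krüppel-like family, had low values in GFP- Pdgfrα- cells and high ones in all other populations. *Klf6* was at 26.3 and 37.85 there and between 263 and 352 in the other 6 libraries. *Klf4* was at 6.75 and 7.90 there, at 54.5 and 64.4 in GFP+ Pdgfrα- cells and between 122 and 154 in the Pdgfrα+ libraries, and of the GFP+ cells those with Pdgfrα were higher (1.24, adjusted p = 0.0004315). *Ier3* was highest in GFP+ Pdgfrα+ cells, at 57.0 and 34.6, and 2.08 above GFP+ Pdgfrα- cells (adjusted p = 0.003715). *Myc*, a driver of cell growth, was highest in GFP- Pdgfrα- cells, at 135 and 155, and lowest in GFP- Pdgfrα+ cells, at 43.7 and 34.0. *Klf10* lay between 60.35 and 86.3 in all 8 libraries and was called in no comparison.

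Genes that end the response, phosphatases and inhibitors of signalling and proteins of mRNA decay, were compared in a list of 19. *Rhob*, *Sgk1*, *Gadd45a*, *Gadd45b* and *Gadd45g*, which are not of these classes, were also among the 19. Among Pdgfrα- cells 14 were higher and 4 lower in GFP+ cells (median 1.79), among Pdgfrα+ cells 5 were higher and none lower (median 0.32), and in the single positive comparison 12 were lower and none higher in GFP- Pdgfrα+ cells (median −1.27). The shares of all genes called higher and lower were 30.1% and 23.6%, 3.22% and 2.13%, and 14.3% and 13.5% in these comparisons. *Btg2*, an antiproliferative gene, was at 265 and 308 in GFP+ Pdgfrα- cells and 35.7 and 38.5 in GFP- Pdgfrα+ cells. *Dusp4*, a nuclear MAP kinase phosphatase, was at 27.1 and 24.8 in GFP+ Pdgfrα- cells and 6.75 or less elsewhere. *Rhob*, a small GTPase, had the most negative interaction of the list (−4.48, adjusted p = 4.12e-07), with 212 and 286 in GFP+ Pdgfrα- cells and 66.15 and 65.4 in GFP+ Pdgfrα+ cells.

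*Zfp36*, which encodes tristetraprolin, a protein that speeds the decay of AU-rich mRNAs, differed in order from *Btg2*, *Dusp4* and *Rhob*. Other genes of the list did so too. *Zfp36* was highest in GFP+ Pdgfrα+ cells, at 388 and 258, and next in GFP+ Pdgfrα- cells, at 187 and 193. It was at 131 and 87.8 in GFP- Pdgfrα+ cells and at 38.9 and 41.9 in GFP- Pdgfrα- cells. Its relative *Zfp36l1* was at 83.4 and 94.0 in GFP- Pdgfrα- cells and between 221 and 343 elsewhere. *Socs3*, a feedback inhibitor of cytokine receptors, was at 1.58 and 2.95 in GFP- Pdgfrα- cells against 73.9 and 124 in GFP+ Pdgfrα- cells (4.92, adjusted p = 4.765e-08). *Gadd45g* gave the largest called difference of the list among Pdgfrα+ cells, 40.2 and 26.9 in GFP+ against 6.43 and 5.79 in GFP- cells (2.25, adjusted p = 0.000951).

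Of 8 other genes of the immediate-early response, for secreted products and the enzyme of *Ptgs2*, 7 were analysed here, without *Il6*. All 7 were higher in GFP+ Pdgfrα+ than GFP- Pdgfrα- cells, where 32.9% of all genes were called higher. After quantile normalization 4 of the 7 were called in that comparison, where 4059 of 15880 genes were called higher and 5132 lower. Among Pdgfrα- cells 5 were higher in GFP+ cells and none lower, against 30.1% and 23.6% of all genes, and among Pdgfrα+ cells 2 were higher and 1 lower, against 3.22% and 2.13%. *Cyr61*, a matricellular protein, was at 372 and 437 in GFP+ Pdgfrα- cells against 12.8 and 12.85 in GFP- Pdgfrα- cells (4.87, adjusted p = 5.42e-10). *Ptgs2*, which encodes the inducible cyclooxygenase and is a target of AP-1 and CREB, was high in GFP+ Pdgfrα+ cells alone of the 4 populations, at 78.0 and 64.0 against 8.70 or less in the other 6 libraries (3.62 against GFP- Pdgfrα+ cells, adjusted p = 0.000672). *Ctgf*, a relative of *Cyr61*, was between 98.5 and 120 in the Pdgfrα+ libraries, 50.9 and 48.0 in GFP+ Pdgfrα- and 9.315 or less in GFP- Pdgfrα- cells. The growth factor *Hbegf* was the gene of this list lower in GFP+ among Pdgfrα+ cells, at 5.11 and 4.74 against 15.8 and 21.2 (−1.70, adjusted p = 0.0133). The chemokine *Cxcl1* was highest in GFP+ Pdgfrα- cells, at 20.03 and 18.65.

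There limma called 3.22% of all genes higher and 2.13% lower among Pdgfrα+ cells, edgeR 526 and 367 of 15880 genes, and voom 1057 in either direction. Of 14 kinases and factors upstream of these genes, 0 were called among Pdgfrα+ cells by limma, voom or edgeR. With limma 2 of the 14 had an unadjusted p under 0.05 (median −0.02). Among Pdgfrα- cells 7 were higher and 3 lower in GFP+ cells (median 0.77), against 30.1% and 23.6% of all genes, and in the single positive comparison 2 were higher and 4 lower in GFP- Pdgfrα+ cells, against 14.3% and 13.5%. *Mkl1*, a coactivator of serum response factor, was at 9.91 and 11.9 in GFP- Pdgfrα-, 84.6 and 80.0 in GFP- Pdgfrα+, 32.7 and 34.1 in GFP+ Pdgfrα- and 70.0 and 66.8 in GFP+ Pdgfrα+ cells, and *Mkl2* was between 33.5 and 124. The ternary complex factors *Elk1* and *Elk3* were lowest in GFP- Pdgfrα- cells, with differences of 1.86 and 1.23 between the Pdgfrα- populations (adjusted p = 2.77e-05 and 0.00478), while *Elk4* (0.27, adjusted p = 0.112) was not called there. *Creb1*, a factor that binds the cyclic AMP response element, was highest in GFP- Pdgfrα- cells, at 163 and 147.

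Other heat shock genes were compared as a list. Of 22 other cytosolic heat shock proteins and cochaperones, 8 were higher and 9 lower in GFP+ than in GFP- cells without Pdgfrα (median −0.16), against 30.1% and 23.6% of all genes. After median centring 5 were higher and 11 lower there (median −0.61), where 3550 of 15880 genes were higher and 5569 lower. With Pdgfrα, and without centring, 1 was lower and none higher (median 0.05), against 2.13% and 3.22% of all genes. GFP+ Pdgfrα- cells were above GFP+ Pdgfrα+ cells for 12 of the 22 and below them for none, where 11.1% of all genes were called in the first direction. They were above GFP- Pdgfrα+ cells for 10 and below them for none, where it was 13.5%. In these 2 comparisons the called genes of the list thus had the direction of *Hspa1a* and *Hspa1b*. The small heat shock protein *Hspb1* was at 77.1 and 99.7 in GFP+ Pdgfrα- cells and 10.4 or less in the other 6 libraries (5.19 between the Pdgfrα- populations, adjusted p = 2.7e-05). The size of that difference is uncertain, since *Hspb1* had 0 reads in GFP- Pdgfrα- replicate 1 and 17 in replicate 2 (0.144 and 4.13). *Hspb8*, another small heat shock protein, was lower in GFP+ than in GFP- cells with Pdgfrα (−1.66, adjusted p = 0.0208).

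*Hspa8*, the constitutive cytosolic Hsp70, was at 3440 and 3492 in GFP- Pdgfrα-, 2145 and 2559 in GFP+ Pdgfrα-, and between 1421 and 1529 in the Pdgfrα+ libraries. *Hsp90aa1*, the inducible Hsp90, was at 1738 and 1396, 644 and 682, and between 197 and 291 in the same groups, and *Hsp90ab1* was between 1221 and 2952 over all libraries. *Hspa4l* was at 156 and 163 in GFP- Pdgfrα- cells and 39.0 or less elsewhere. *Dnaja1*, a cochaperone of Hsp70, was highest in GFP+ Pdgfrα- cells, at 531 and 471 against 323 or less in the other libraries.

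Chaperones of the endoplasmic reticulum and mitochondria, 6 in number, were called higher for 2 and lower for 2 in GFP+ cells without Pdgfrα, against 30.1% and 23.6% of all genes, and higher for 1 with Pdgfrα, against 3.22%. The last was *Serpinh1*, the collagen chaperone, at 483.5 and 350 in GFP+ Pdgfrα+, 235 and 195 in GFP- Pdgfrα+, 115 and 115 in GFP+ Pdgfrα- cells and 7.61 and 13.6 in GFP- Pdgfrα- cells. The mitochondrial *Hspd1* and *Hspe1* were highest in GFP- Pdgfrα- cells, at 981 and 821.5 and at 108 and 120. *Hspa5* and *Hsp90b1*, targets of the unfolded protein response, differed by −0.25 (adjusted p = 0.171) and 0.58 (adjusted p = 0.00228) between GFP+ and GFP- cells without Pdgfrα.

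Genes of the integrated stress response, of which *Atf3* is also a target, were compared as a list. It included *Hmox1* and *Xbp1*, which also act in other stress responses. Of 9, GFP+ cells without Pdgfrα were lower for 5 and higher for 2, the latter *Hmox1* and *Xbp1*, with a median of −1.39. In that comparison 23.6% of all genes were called lower and 30.1% higher. Among Pdgfrα+ cells 0 were called by limma and voom and 1 by edgeR, with 3 at an unadjusted p under 0.05 with limma (median 0.53). There limma called 3.22% of all genes higher and 2.13% lower. Of 15880 genes edgeR called 526 higher and 367 lower there, and voom called 1057 in either direction. *Asns*, which encodes asparagine synthetase, was at 301 and 267.5 in GFP- Pdgfrα- cells and 16.2 or less elsewhere, and *Ddit3*, which encodes CHOP, was at 42.65 and 53.9 there and 18.3 or less elsewhere. *Atf4* itself was at 216 and 228 in these cells, and its difference between the Pdgfrα- populations was not called (−0.31, adjusted p = 0.137). *Xbp1* was highest in GFP+ Pdgfrα+ cells, at 207 and 193.

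Genes outside these lists whose log2 signal followed *Fos* most closely over the 8 libraries, among 8876 with a mean of at least 10, were *Hey1* (Pearson r = 0.994), *Lrrn1* (0.9905), *Adcyap1r1* (0.9885), *Sorbs2* (0.987) and *Tln2* (0.986). *Hey1*, a target of Notch signalling, had means of 1.24 in GFP- Pdgfrα-, 10.1 in GFP- Pdgfrα+, 73.9 in GFP+ Pdgfrα- and 20.8 in GFP+ Pdgfrα+ cells. Closest to *Hspa1a* were *Mrvi1* (0.981), *Mapt* (0.978), *Zfp238* (0.972), *Cux1* (0.972) and *Ntn4* (0.9685), and *Mapt*, which encodes the microtubule protein tau, had means of 3.05, 1.03, 39.6 and 3.44. The 8 points come from 4 populations and share their normalization, so these values describe the order of the populations.

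Markers of other cell types moved with the same populations. The GFP+ Pdgfrα- libraries, highest in most of the 10 genes, were also highest in 3 lists. The 7 skeletal muscle markers summed to 684 and 702 there, led by *Pax7* of muscle satellite cells at 296 and 336, against sums of 46.3 and 56.8 in GFP+ Pdgfrα+ cells and 23.3 or less in the GFP- libraries. The 6 markers of Schwann cell precursors summed to 434 and 404, led by *Erbb3* at 131 in each library, against 95.3 and 61.5 in GFP+ Pdgfrα+ cells and 39.6 or less in GFP- cells, where *Foxd3* had 0 reads in 3 libraries. The 6 markers of pericytes and smooth muscle summed to 2161 and 2796, led by *Rgs5* at 731 and 1035, against 509 or less in the other 6 libraries. *Cspg4* of that list was instead highest in GFP- Pdgfrα+ cells, at 255 and 260, against 104 and 146.5. The part of these cell types in the levels of the 10 genes was not tested.

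The GFP- Pdgfrα- libraries, lowest in 5 of the 10 genes, carried erythroid RNA. Of 10 erythroid markers 8 were analysed here, and they summed to 13720 and 21770 in these libraries, led by *Hbb-b1* at 4362 and 7619, against 169.5 or less in each other library. Haematopoietic markers, of which 10 of 11 were analysed here, summed to 90.2 and 83.2, led by *Lyz2*, against 36.4 or less elsewhere, with *Elane* at 0 reads in 4 of the libraries outside this population. The 6 endothelial markers summed to 31.9 and 115 in these libraries and to between 48.3 and 103 in the others. Reads on mitochondrial genes made up 36.9% and 39.1% of these libraries, 24.2% and 22.2% of GFP+ Pdgfrα- libraries, 14.4% and 14.5% of GFP- Pdgfrα+ libraries, and 12.98% and 13.7% of GFP+ Pdgfrα+ libraries. Their part in the differences from this population was not tested. The fold changes between the single positives do not use these libraries, nor do those of GFP+ Pdgfrα+ cells against GFP- Pdgfrα+ or GFP+ Pdgfrα- cells, but their p-values use the spread pooled with them. With only the compared populations fitted, 10, 4 and 7 of the 10 genes were called, as with all 8 libraries.

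Skeletal markers separated the Pdgfrα+ libraries. The 6 bone markers summed to 54710 and 40740 in GFP+ Pdgfrα+ cells and 17020 and 15490 in GFP- Pdgfrα+ cells, nearly all *Col1a1*, against 3366 and 2793 in GFP+ Pdgfrα- and 464 and 591 in GFP- Pdgfrα- cells, where *Bglap* had 0 reads. The means of *Ibsp*, *Dmp1* and *Bglap* were 143, 39.4 and 4.24 in GFP+ Pdgfrα- cells, above the 49.9, 5.19 and 1.465 of GFP- Pdgfrα+ cells. The 6 cartilage markers, led by *Col2a1*, differed between the libraries of GFP- Pdgfrα+ cells, with sums of 603 and 1958. Their sums were 501 and 914 in GFP- Pdgfrα-, 66.8 and 96.2 in GFP+ Pdgfrα-, and 292 and 370 in GFP+ Pdgfrα+ cells.

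Scaling bears on the comparisons with GFP- Pdgfrα- cells. The median gene of these libraries stood at 3.20 and 3.26 on the log2 scale, against 3.67 to 3.73 in the other 6, so that centring each library on its median moved every difference from this population by −0.45 to −0.48, and the interaction by 0.43. All 10 genes were still called higher in GFP+ than in GFP- cells without Pdgfrα, where 3550 of 15880 genes were higher and 5569 lower. Of all genes called there, 38.9% were then higher, against 56.1% before, with 40.6% against 55.15% between the GFP- populations, 39.6% against 55.5% for GFP+ Pdgfrα+ against GFP- Pdgfrα- cells, and 59.7% against 43.1% for the interaction. For the 10 genes, centring changed 5 higher and 3 lower calls between the GFP- populations to 4 and 5, and 5 and none between GFP+ Pdgfrα+ and GFP- Pdgfrα- cells to 4 and 3. Over all 15880 genes centring gave 3913 higher and 5720 lower calls in the first of these comparisons, and 3834 and 5846 in the second. Quantile normalization moved the median of all genes by −0.30 to −0.36 in the comparisons with this population and by 0.25 in the interaction. For GFP+ Pdgfrα+ against GFP- Pdgfrα- cells 44.2% of called genes were then higher. Of the 10 genes 6 were called higher and none lower there, against 4059 and 5132 of 15880 genes. Scaling to reads outside mitochondrial genes moved the median by −0.27 and −0.25 in the comparisons of Pdgfrα+ with GFP+ Pdgfrα- cells, with 30.8% against 54.05% and 31.7% against 51.4% of called genes higher. It moved the median by 0.13 between the Pdgfrα- populations, −0.12 for GFP+ Pdgfrα+ against GFP- Pdgfrα- cells and −0.15 in the interaction. It left 8 of the 10 genes lower in GFP+ Pdgfrα+ than GFP+ Pdgfrα- cells and all 10 lower in GFP- Pdgfrα+ cells. Of all 15880 genes 3473 were then called lower in the first of these comparisons and 3605 in the second.

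The 250 bases before the transcription start were searched in RefSeq sequences of GRCm38.p6 for 8 of the 10 genes, and those of *Egr1* and *Ier2* were not analysed here. Both strands were read. The cyclic AMP response element TGACGTCA stood in 1.55% of 32851 such windows of all genes and in that of *Dusp1*, at −143 to −136. Its core TGACG, which the full element also contains, stood in 17.8% of all windows and in those of *Fos*, *Fosb*, *Junb*, *Atf3* and *Dusp1*. A short part of the heat shock element, spelled GAANNTTC or TTCNNGAA, stood in 12.8% of all windows. It was in those of *Hspa1a* and *Hspa1b*, at −104 to −97 in both, and of *Jun*, at −128 to −121. The full element was not searched for. The AP-1 motif TGANTCA (6.75% of all windows) and the CArG box of serum response factor (1.47%) matched in none of the 8, which says only that these letters are not in the window. TATAAA (12.4% of windows) was found in *Fos*, and CCAAT (33.85% of windows) in *Jun*, *Junb*, *Hspa1a* and *Hspa1b*. The windows of the 8 genes held 58.4% to 68.8% G and C, against a median of 52.4% over all windows. The Hsp70 genes are shown because their signals moved together, though the division of reads between them is uncertain. *Dusp1* is shown because it holds the full cyclic AMP response element. Capitals mark this part of the heat shock element or the cyclic AMP response element. All 3 genes are on the minus strand, at chr17:34972157-34972406, chr17:34959239-34959488 and chr17:26508473-26508722. The windows of the Hsp70 genes were 98.8% identical, with 3 mismatched bases.
Hspa1a: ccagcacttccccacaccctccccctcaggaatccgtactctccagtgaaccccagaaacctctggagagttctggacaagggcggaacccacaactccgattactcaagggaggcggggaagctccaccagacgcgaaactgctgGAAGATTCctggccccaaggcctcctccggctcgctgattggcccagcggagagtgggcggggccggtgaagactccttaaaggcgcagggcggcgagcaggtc
Hspa1b: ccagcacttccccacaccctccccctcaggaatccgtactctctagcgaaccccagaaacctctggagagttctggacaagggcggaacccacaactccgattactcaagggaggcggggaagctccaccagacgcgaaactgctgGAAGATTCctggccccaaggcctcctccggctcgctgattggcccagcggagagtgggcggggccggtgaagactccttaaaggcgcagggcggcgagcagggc
Dusp1: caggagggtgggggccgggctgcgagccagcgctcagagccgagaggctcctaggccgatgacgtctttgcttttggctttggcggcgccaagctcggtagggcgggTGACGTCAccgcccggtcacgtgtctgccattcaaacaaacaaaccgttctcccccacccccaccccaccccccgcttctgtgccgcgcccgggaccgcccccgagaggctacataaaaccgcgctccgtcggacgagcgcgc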

How the data were processed

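RNA from 4 sorted populations of neonatal bone marrow stromal cells was measured in 8 libraries, 2 per population. The authors trimmed reads with cutadapt, counted them with RSEM on the NCBIM37 transcriptome, filtered genes and normalized with voom and limma, and deposited a normalized signal for 15880 genes, which is not logged. Here 15849 identifiers were named from an annotation of the same build. The signal equals (reads + 0.5) over an effective library size, times 1e6, and 100% of values gave whole reads back within 0.01. The depth was 3221217 to 5302762 reads per library. The kit does not mark strand, and how strand entered the counting is not stated.

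Differences were tested with limma 3.58.1 in R 4.3.3, lmFit and eBayes with a mean-variance trend on log2(signal + 1), fitting 1 mean for each population, which left 4 residual degrees of freedom. The p-values were adjusted by Benjamini-Hochberg over 15880 genes and called at 0.05 or less, in 6 pairwise comparisons and their interaction. The scripts were tested on simulated data. Alternatives were a fit to the compared populations alone, the replicate number as a block, no trend, a pseudocount of 0.1, a filter on low values (over 2 in at least 2 libraries), quantile normalization, median centring, scaling to reads outside mitochondrial genes, voom and edgeR 4.0.16 on recovered reads, *Hspa1a* and *Hspa1b* summed, and each library left out. Summaries used Python 3.11.15 with pandas 2.3.3 and numpy 2.4.6, and plots matplotlib 3.10.9. The replicate number marks a set of littermates in the study's design, and the deviations of same-numbered libraries correlated at 0.0043 to 0.0812.

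The 10 genes and the lists were chosen with earlier results of these data known. From each list the genes named with their values were that with the largest called change in each comparison and the 4 highest means. A gene that this rule picks and a sort marker are not reported here. Of each marker list the most abundant genes and genes at 0 reads were named. The genes most like *Fos* and *Hspa1a* were the top 5 of 8876 unlisted genes with a mean of at least 10.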

Additional observations from a re-analysis of the deposited data

Results flagged for a closer look

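By the interaction term 25.2% of all genes were called negative and 19.1% positive. These were 7031 genes, and 6553 to 7416 in the alternatives that keep all libraries. The difference between GFP+ and GFP- cells was called unequal with and without Pdgfrα for 9 of the 10 genes by this term. The count was 5 without the mean-variance trend, 6 with median centring and with voom, 7 with quantile normalization and 4 without GFP+ Pdgfrα- replicate 2, and *Fos*, *Jun*, *Egr1* and *Dusp1* kept the call in every alternative. The log2 difference among Pdgfrα+ cells minus that among Pdgfrα- cells was −3.00 for *Fos*, −1.04 for *Fosb*, −2.53 for *Jun*, −3.57 for *Egr1*, −1.09 for *Ier2*, −1.23 for *Atf3*, −1.60 for *Dusp1*, −1.96 for *Hspa1a* and −1.64 for *Hspa1b*.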

How the results depend on the processing

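Over the alternatives that keep all libraries, 666 of 704 values for the 10 genes kept their direction and their side of the threshold, 19 lost and 13 gained a call, and 6 reversed. Without 1 library, where the lone sample is assumed to vary like the others, 517 of 560 kept both, 28 lost and 2 gained a call, and 13 reversed. The number of the 10 genes called among Pdgfrα+ cells lay between 1 and 4 without 1 library, and that for the interaction between 4 and 9, with 5 without the trend against 9. Over all genes, calls among Pdgfrα+ cells went from 849 to 532 without the trend, and to 306, 246, 350 and 517 without GFP- Pdgfrα+ replicates 1 and 2 and GFP+ Pdgfrα+ replicates 1 and 2. Between the GFP+ populations they went from 3848 to 2158 and 2411 without GFP+ Pdgfrα- replicates 1 and 2, and between the single positives from 4427 to 2757 without GFP+ Pdgfrα- replicate 1 and 2874 without GFP- Pdgfrα+ replicate 2.

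No called difference reversed. With median centring *Jun* and *Ier2* were at −0.17 and −0.16 for GFP+ Pdgfrα+ against GFP- Pdgfrα- cells. With scaling to reads outside mitochondrial genes *Fosb* and *Atf3* were at −0.09 and −0.17 between the GFP+ populations, and *Junb* at −0.13 for the interaction. With edgeR *Dusp1* was at 0.021 between the Pdgfrα+ populations. Without 1 library, *Dusp1* lay between −0.37 and 0.34 there, −0.36 and 0.078 between the GFP- populations, and −0.51 and 0.20 for GFP+ Pdgfrα+ against GFP- Pdgfrα- cells. *Junb* lay between −0.23 and 0.30 for the interaction, and *Fosb* and *Atf3* between −0.12 and 0.55 and between −0.39 and 0.66 between the GFP+ populations. The cause was not tested. Of the 10 genes, the replicate block changed only the *Hspa1a* and *Hspa1b* calls given above.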
